A study of Mus musculus with 2 samples.

Results

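Bins of an old mouse ovary section that were rich in Tnc, Ptgfr and Wnt10b but not in a steroid-forming gene set were described. The section was cut from the ovary of a C57BL6/J female of about 14 months, the library labelled old replicate 1, and was measured by Slide-seq, in which RNA of a cryosection is caught by barcoded beads of known position. The beads were gathered into square bins of 70 by 70 position units, and 884 bins held at least 500 counts and were kept. The 10% of kept bins with the highest share of Hsd17b7, Cst8 and Scarb1 counts, 88 bins, were set aside as steroid-forming bins. The remaining bins were ranked by the share of their counts from Tnc, Ptgfr and Wnt10b, and the highest 10%, 79 bins, were the members. The other 717 kept bins were the second comparison. The same rule, applied to the section of a C57BL6/J female of 2 months (the library labelled young replicate 3), took 117 member bins and 130 steroid-forming bins out of 1306. No treatment or engineered allele is named for either mouse. The labels' protocols state that sections came from 2 females per age and that planes with several oocytes were chosen; 1 section per age was analysed here. Age, animal, plane and library therefore cannot be told apart, the bins of a section are not replicates, and no test was made. Intervals are 95% intervals for counting error only.

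The corpus luteum forms from the follicle after ovulation and makes progesterone from cholesterol until it regresses. Ptgfr encodes the receptor for prostaglandin F2alpha, the signal that ends the life of the corpus luteum in rodents, in part by inducing Akr1c18, the enzyme that converts progesterone to a less active form. Tnc encodes tenascin C, a matrix glycoprotein of tissue that is being remodelled, and Wnt10b encodes a secreted Wnt ligand. Among the genes that set bins aside, Hsd17b7 acts in cholesterol synthesis and oestradiol formation and Scarb1 takes up lipoprotein cholesterol, while Cst8 encodes a cystatin.

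Upstream sequences are shown for the 3 ranking genes, whose shares chose the bins, and for Akr1c18, since its level separated the member groups described further on. Each runs 5′ to 3′ over the 250 bases before a RefSeq start site of the GRCm38.p6 annotation, and all 4 genes lie on the minus strand. The stretch of Tnc is at chr4:64047016-64047265, that of Ptgfr at chr3:151837529-151837778, that of Wnt10b at chr15:98778151-98778400 and that of Akr1c18 at chr13:4150647-4150896. Capitals mark a match to a searched motif.
Tnc: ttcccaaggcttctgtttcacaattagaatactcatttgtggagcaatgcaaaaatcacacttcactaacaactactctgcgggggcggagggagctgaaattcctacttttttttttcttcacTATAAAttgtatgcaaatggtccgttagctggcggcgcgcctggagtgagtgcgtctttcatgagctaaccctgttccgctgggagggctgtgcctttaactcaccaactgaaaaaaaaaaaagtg
Ptgfr: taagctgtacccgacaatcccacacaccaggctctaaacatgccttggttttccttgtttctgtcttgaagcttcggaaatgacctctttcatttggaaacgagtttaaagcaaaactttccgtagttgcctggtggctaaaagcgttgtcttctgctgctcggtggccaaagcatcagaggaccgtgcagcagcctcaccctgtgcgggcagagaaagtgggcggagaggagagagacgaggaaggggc
Wnt10b: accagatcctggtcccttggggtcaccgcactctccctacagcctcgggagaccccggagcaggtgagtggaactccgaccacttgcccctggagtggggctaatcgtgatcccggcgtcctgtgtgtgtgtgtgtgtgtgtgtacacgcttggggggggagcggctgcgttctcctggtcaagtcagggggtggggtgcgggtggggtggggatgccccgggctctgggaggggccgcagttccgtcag
Akr1c18: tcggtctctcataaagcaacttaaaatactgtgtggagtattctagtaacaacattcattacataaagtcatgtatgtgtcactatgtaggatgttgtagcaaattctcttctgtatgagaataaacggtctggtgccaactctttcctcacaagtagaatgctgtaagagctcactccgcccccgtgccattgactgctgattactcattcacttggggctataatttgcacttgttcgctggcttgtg

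Both strands were searched for an NR5A half-site (AAGGTCA), an AP-1 site (TGANTCA), a cAMP response element (TGACGTCA), a TCF/LEF site (ATCAAAG) and a TATA box (TATAAA). The 1 match was a TATA box in Tnc, 126 bases upstream of the start. RefSeq lists a second Tnc start whose window, chr4:64046937-64047186, holds the same TATA box 205 bases upstream. The shares of the 32851 promoter windows with a match were 4.08% for the NR5A half-site, 6.75% for AP-1, 1.55% for the cAMP response element, 3.21% for TCF/LEF and 12.4% for the TATA box. These matches are descriptions of letters and were not set against binding or activity.

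The members were chosen by the values of the ranking genes, which are given as a description. Tnc stood at 3408 CPM, the summed counts scaled to a total of 1000000, in the members, 988.5 in the steroid-forming bins and 514.8 in the other kept bins, and every 1 of the 79 members held a Tnc count. Ptgfr stood at 2177, 2090 and 197.3 CPM, and Wnt10b at 1527, 642.7 and 255 CPM, in the same order. The steroid-forming bins thus held Ptgfr at nearly the level of the members but less Tnc and Wnt10b. The 3 genes together made up 0.456% to 1.77% of a member's counts, with a median of 0.634%. All 3 were found in 70 members and exactly 2 in the other 9. Tnc gave the most marker counts in 43 members, Ptgfr in 17 and Wnt10b in 7, and 12 had a tie.

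The edge of the set was not sharp. The last bin inside had 18 marker counts of 3950 (0.4557%) and the first bin outside had 3 of 662 (0.4532%). Of the members, 19 rested on fewer than 10 marker counts and 8 held under 1000 counts in all. Of the 88 steroid-forming bins, 21 reached the share of the last member and would have been members had they not been set aside. Across the kept bins, the share of the marker genes and that of the steroid-forming genes correlated with Spearman's rho 0.429 (884 bins of 1 library, which share their depth), given as a description.

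Each ranking gene was also read in bins ranked without it. In the 79 bins ranked by Ptgfr and Wnt10b, Tnc was at 2835 CPM against 595.3 in the other bins, a ratio of 4.76 (4.25 to 5.33). In the bins ranked by Tnc and Wnt10b, Ptgfr was at 1766 CPM against 237.4, a ratio of 7.44 (6.40 to 8.63), but it was at 0.845 (0.732 to 0.974) of its level in the steroid-forming bins. Wnt10b, in bins ranked by Tnc and Ptgfr, was at 1334 CPM against 275.3, a ratio of 4.84 (4.12 to 5.68). The 3 genes therefore shared bins when the ranking did not use them, within the same library. These rankings kept 60, 62 and 70 of the members. In the young section the same ratios were 13.1 for Tnc, 13.4 for Ptgfr and 9.41 for Wnt10b.

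**Figure D1:**
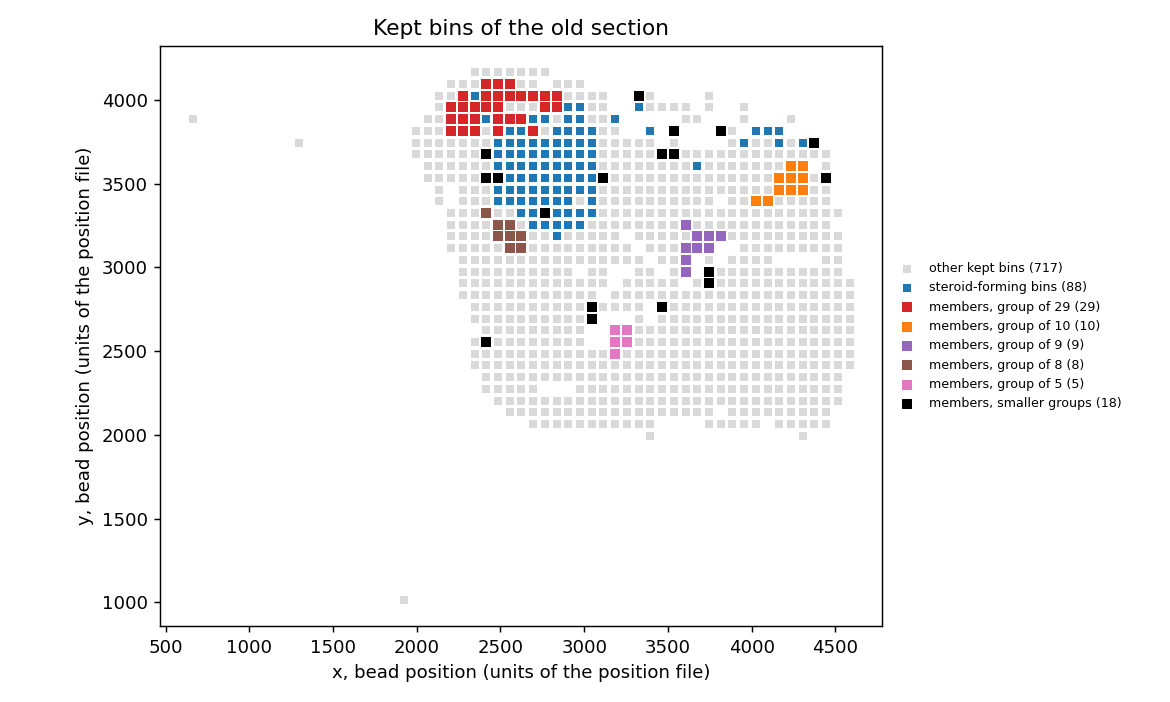
Map of the 884 kept bins of the old section, with x and y in the units of the bead positions. Grey squares are the 717 other kept bins, blue squares the 88 steroid-forming bins, and the other colours the 79 members by group of adjoining bins, of which the group of 29 lies along one edge of the steroid-forming bins.

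The members lay in patches. On average 43.3% of the kept neighbours of a member were members, against 8.94% of all kept bins. They formed 19 groups of adjoining bins, of which 5 held at least 5 bins (29, 10, 9, 8 and 5) and 61 members together, with 4 pairs and 10 single bins among the rest. Steroid-forming bins were more compact, with 71.4% of neighbours of their own kind and 76 of 88 bins in 1 group. Of the members, 27 (34.2%) adjoined a steroid-forming bin, against 67 (9.34%) of the other kept bins, and 17 of these 27 were in the group of 29. The young section was alike in kind, with 12 groups, the largest of 30 bins, and 48.2% of neighbours being members.

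Depth and RNA classes differed between the sets. The old section held 2348768 counts on 10267 beads. The members held 172240 counts with a median of 2023 counts per bin, the steroid-forming bins 266052 with a median of 3015, and the other kept bins 1855242 with a median of 1981. The nuclear noncoding RNA Malat1 was at 38742 CPM in the members, 25164 in the steroid-forming bins and 19133 in the other kept bins, and Neat1 at 4877, 3169 and 2383. Mitochondrial transcripts made up 1.54%, 1.47% and 1.30%. The part of these differences in the gene ratios was not tested. A bin can hold several cells of different types, so more cells of a type and more RNA per cell cannot be told apart.

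The luteal label was read against genes of the corpus luteum and of other cell types. Cyp11a1, which makes the first steroid from cholesterol, had counts in all 79 members and in 98.9% of the other kept bins, and Hsd3b1, which forms progesterone, in all members and 98.5%, so that their presence did not mark the members. Sfrp4, a secreted Wnt-binding protein, had counts in 96.2% of members and 71.1% of the other bins, and Prlr, the prolactin receptor, in 77.2% and 56.8%. Lhcgr, the receptor for luteinising hormone, went against the label. It was found in 26.6% of members, at 232.2 CPM, and in 32.8% of the other bins. Its ratio over the other kept bins was 1.10 (0.773 to 1.52). Star, a gene of progesterone synthesis, was at 0.947 and the nuclear receptor Nr5a2 at 0.242 of the other bins, so neither marked the members. Akr1c18 was 4.97-fold over the other bins. Of 14 oocyte genes, 10, Zp1, Zp2 and Gdf9 among them, had no count in the members, and 3 of 6 theca genes, Cyp17a1 and Insl3 included, had none. The 6 theca genes together had 84 counts, and the list had counts in 62.0% of members. Of the 10 granulosa genes only Fshr, the follicle-stimulating hormone receptor, had no count, and the list was at 1306 CPM with counts in 79.7% of members.

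Genes were described in a comparison where their pooled count would give at least 20 counts in the smaller set at equal CPM, and a ratio of at least 1.5-fold either way was counted as higher or lower. Over the other kept bins, 117 of 1886 genes described were higher in the members (6.2%) and 321 were lower (17%), with a median ratio of 0.918. Over the steroid-forming bins, 213 of 1799 were higher (11.8%) and 300 lower (16.7%), with a median of 0.973. The ranking used these same contrasts, so nothing is read from the shares themselves.

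Progesterone synthesis lay between the comparison sets. Summed over 9 genes it stood at 33459 CPM in the members, 1.67 times (1.63 to 1.72) the level of the other kept bins and 0.602 times (0.584 to 0.621) that of the steroid-forming bins. Hsd3b1 was at 15757 CPM, 1.97-fold (1.89 to 2.05) over the other bins, and Cyp11a1 at 12790 CPM, 1.83-fold (1.75 to 1.91). Star, which carries cholesterol into mitochondria, was at 1092 CPM, 0.947 (0.812 to 1.10) of the other bins and 0.395 (0.334 to 0.464) of the steroid-forming bins. Fdx1 and Fdxr, which carry electrons to Cyp11a1, had ratios over the other bins of 0.882 and 1.14. Of 5 genes described, 2 were higher and none lower than in the other bins, beside 6.2% and 17% of all genes described. Over the steroid-forming bins none was higher and 3 were lower, beside 11.8% and 16.7%. The steroid-forming bins were chosen by Hsd17b7, Cst8 and Scarb1, so the lower level in the members is given as a description.

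Cholesterol synthesis was lower in the members than in the steroid-forming bins, most of which lie in 1 quadrant of the section. Those bins were chosen partly by Hsd17b7, which acts in cholesterol synthesis, and by Scarb1. A lower level in the members was thus favoured by the rule and is given as a description. The 18 genes summed to 2810 CPM in the members, 7420 in the steroid-forming bins and 2468 in the other bins, ratios of 0.379 (0.342 to 0.419) and 1.14 (1.03 to 1.25). All 10 members of the list that were described over the steroid-forming bins were lower, with a median ratio of 0.331 against 0.973 over all genes described, 16.7% of which were lower. Without the quadrant of low x and high y, where 8 steroid-forming bins with 25 counts of the list were left, the list ratio was 0.713 (0.469 to 1.13). Hmgcs1, which makes the precursor of mevalonate, was at 609.6 against 1691 CPM, a ratio of 0.360 (0.289 to 0.447). Msmo1, a sterol demethylase of the pathway, was at 0.434 (0.361 to 0.520), Cyp51 at 0.212 (0.112 to 0.372) and Dhcr7, the last reductase, at 0.233 (0.140 to 0.371). Lhcgr was at 0.193 (0.135 to 0.269) of its level there, and the fatty acid elongase Elovl6 at 0.204 (0.0897 to 0.411).

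Genes that take up, carry or store cholesterol had unlike ratios. Apoe, a lipoprotein component made by macrophages and steroid-forming cells, was at 3298 CPM in the members, 2.16-fold (1.97 to 2.36) over the other bins and 5.55-fold (4.65 to 6.67) over the steroid-forming bins. Npc2, which hands cholesterol out of the lysosome, was at 0.486 (0.348 to 0.670) of the steroid-forming bins. Soat1, which esterifies cholesterol, was at 0.458 (0.344 to 0.599) of the other bins. Plin4, a coat protein of lipid droplets, had the highest ratio over the other bins, 702.5 against 137.4 CPM or 5.11-fold (4.08 to 6.37), and was at 1146 CPM in the steroid-forming bins.

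Luteal receptors and factors summed to 7588 CPM in the members, 2.92-fold (2.74 to 3.10) over the other bins and 0.800-fold (0.747 to 0.855) of the steroid-forming bins. Sfrp4 was at 4755 CPM in the members, 4988 in the steroid-forming bins and 1096 in the other bins, so it did not part members from steroid-forming bins (0.953, 0.873 to 1.04). Akr1c18 was at 1202, 319.5 and 242 CPM, 4.97-fold (4.19 to 5.87) over the other bins and 3.76-fold (2.91 to 4.90) over the steroid-forming bins. Prlr was at 998.6 CPM, 1.88-fold over the other bins and 0.411-fold (0.345 to 0.487) of the steroid-forming bins. Nr5a2, a nuclear receptor of granulosa and luteal cells, was at 0.242 (0.149 to 0.372) and 0.287 (0.171 to 0.460). Onecut2, a transcription factor, fell below the count minimum over the other bins, with 48 counts in the members and 24 in the other bins.

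Of 20 genes tied to luteal regression, 4 were described over the other bins, 2 higher and 1 lower, beside 6.2% and 17% of all genes described. Beside Akr1c18, Jun, an immediate early transcription factor, was at 551.6 CPM, 2.57-fold (2.03 to 3.22) over the other bins and 3.58-fold (2.46 to 5.30) over the steroid-forming bins. Ier3, another early response gene, was at 0.201 (0.0647 to 0.475) of the other bins, and Bax, which promotes cell death, at 0.999 (0.745 to 1.32). Ccl2, Edn1 and Fasl had no count in the members. The stress gene Gadd45a, outside this list, was at 714.1 CPM, 4.09-fold (3.30 to 5.05) and 1.86-fold (1.42 to 2.45) over the 2 comparison sets. Of 17 apoptosis and autophagy genes, 6 were described over the other bins and none was higher or lower, too few to set against the 6.2% and 17% of all genes described.

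The 14 genes of prostaglandin synthesis and transport summed to 760.6 CPM, 0.563 (0.469 to 0.671) of the other bins and 0.916 (0.732 to 1.14) of the steroid-forming bins. Ptgs1, a cyclooxygenase, was at 46.45 against 357.9 CPM in the other bins, and Slco2a1, the prostaglandin transporter, at 58.06 against 287.8. The 16 genes of Gq signalling, the path below this receptor, were at 0.911 (0.772 to 1.07) and 0.833 (0.685 to 1.01). Of the other prostaglandin receptors, Ptger1, Ptger4, Ptgir and Tbxa2r had no count in the members. Prxl2b, which encodes a prostaglandin F synthase and was outside the synthesis list, was at 499.3 CPM, 2.81-fold (2.19 to 3.57) over the other bins and 0.529-fold (0.409 to 0.679) of the steroid-forming bins.

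The 19 tenascins, matricellular proteins and their receptors without Tnc were at 0.887 (0.829 to 0.947) of the other bins and 0.856 (0.790 to 0.926) of the steroid-forming bins. Itgb3, a chain of an integrin that binds tenascin, was at 394.8 CPM, 1.75-fold (1.34 to 2.27) over the other bins and 0.682-fold (0.505 to 0.913) of the steroid-forming bins, while Spp1, osteopontin, was at 0.216 (0.139 to 0.320) and Ccn2 at 0.271 (0.108 to 0.566). The 26 collagen and matrix genes were at 0.725 (0.678 to 0.775) of the other bins but 1.44-fold (1.32 to 1.58) over the steroid-forming bins. Of those described, 3 of 15 were higher and 5 lower than in the other bins, and 5 of 13 higher and 1 lower than in the steroid-forming bins, beside 6.2% and 17% and then 11.8% and 16.7% of all genes described. Col15a1 was 1.98-fold and 2.21-fold over the 2 sets. Dcn, decorin, a fibroblast proteoglycan, was at 284.5 CPM, 1.54-fold (1.12 to 2.08) over the other bins and 5.41-fold (2.94 to 10.6) over the steroid-forming bins. Vcan and Adamts1, the proteoglycan and protease of the ovulating follicle, were at 0.0928 (0.0599 to 0.137) and 0.106 (0.0732 to 0.148) of the other bins. They were at 1.02 and 1.22 of the steroid-forming bins, so their low level was not particular to the members.

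The 14 genes of Wnt ligands and their secretion, without Wnt10b, summed to 1.17 times (0.968 to 1.41) the level of the other bins. They were at 0.960 (0.764 to 1.20) of the steroid-forming bins. Wnt4, the other abundant ligand, was at 406.4 CPM, 1.34-fold (1.03 to 1.72) over the other bins and 0.684-fold of the steroid-forming bins. The 16 Wnt receptors were at 0.878 (0.745 to 1.03) of the other bins, with Lgr4 at 0.632 (0.470 to 0.834), and at 0.980 (0.802 to 1.20) of the steroid-forming bins. Targets and inhibitors summed to 2.48-fold (2.32 to 2.65) over the other bins and 0.996 (0.921 to 1.08) of the steroid-forming bins. Sfrp4 gave 819 of their 1067 counts in the members. Ctnnb1, beta-catenin, was at 0.944 (0.806 to 1.10) of the other bins, and Lef1, Rnf43 and Dkk2 had no count in the members.

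Genes of macrophages and antigen presentation were higher in the members than in the steroid-forming bins. The macrophage list stood at 1602 CPM against 451, a ratio of 3.55 (2.86 to 4.44), and at 1.67-fold (1.46 to 1.89) over the other bins. The 3 genes described were higher in both comparisons, beside 11.8% and 6.2% of all genes: Lyz2, lysozyme, at 7.55-fold (3.64 to 17.6) over the steroid-forming bins and 1.51-fold (1.07 to 2.07) over the other bins, Ctss, a lysosomal protease, at 5.56-fold and 1.61-fold, and C1qa, a complement subunit, at 2.38-fold and 1.74-fold. None of the 14 macrophage genes was at 0 in the members. Genes of MHC class II were at 2.87-fold (2.14 to 3.89) and 1.72-fold (1.42 to 2.07), and their chaperone Cd74 at 319.3 CPM was 3.69-fold and 2.06-fold higher. Complement genes were at 2.42-fold (2.13 to 2.74) and 1.19-fold (1.10 to 1.29), with Clu, clusterin, at 1794 CPM 2.13-fold and 2.04-fold higher. Lymphocyte genes gave almost no counts, 4 for T, NK and innate lymphoid cells and 3 for B and plasma cells.

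Markers of further cell types differed between the sets. The stromal fibroblast list was at 940.5 CPM in the members, 225.5 in the steroid-forming bins and 751.4 in the other bins, 4.17-fold (3.08 to 5.71) and 1.25-fold (1.06 to 1.47) higher, with no gene of the 8 at 0. Smooth muscle genes were at 1.51-fold (1.20 to 1.91) of the steroid-forming bins and 0.660-fold (0.556 to 0.778) of the other bins. Blood endothelial genes were at 0.637 (0.452 to 0.887) and 0.724 (0.536 to 0.959), and red blood cell genes at 0.174 (0.0926 to 0.304) and 0.117 (0.0635 to 0.196). Granulosa genes were at 0.492 (0.422 to 0.573) and 0.720 (0.626 to 0.824), and theca genes at 1.56-fold (1.14 to 2.14) and 0.532 (0.422 to 0.663). Their part in the ratios of other genes was not tested.

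Genes of hypoxia and glycolysis were lower. All 7 described over the other bins were lower, with a median ratio of 0.493 against 0.918 over all genes described, 17% of which were lower. Ldha, lactate dehydrogenase A, was at 232.2 against 650 CPM, a ratio of 0.357 (0.254 to 0.489), Aldoa at 0.618 (0.494 to 0.766) and Vegfa, the endothelial growth factor, at 0.548 (0.347 to 0.825). Of antioxidant genes, Gpx3, a secreted glutathione peroxidase, was at 1562 CPM, 3.50-fold (3.04 to 4.02) over the other bins, while the metallothioneins Mt1 and Mt2 were at 0.305 (0.237 to 0.386) and 0.274 (0.198 to 0.371). Mt2 was in turn 4.15-fold (2.29 to 7.89) over the steroid-forming bins, so it was lowest there. The proliferation list was at 0.373 (0.283 to 0.484) of the other bins, with Top2a at 3 counts, while Cdkn1b, a cell cycle inhibitor, was at 702.5 CPM, 1.87-fold (1.53 to 2.27) higher. Over the steroid-forming bins the proliferation list was at 1.17 (0.819 to 1.66) and Cdkn1b at 0.853. By the same rule in the young section, 1 of 7 hypoxia and glycolysis genes described was lower, with a median ratio of 0.901. There 23.9% of all genes described were lower, and the list summed to 0.496 (0.459 to 0.536) of the other bins.

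**Figure D2:**
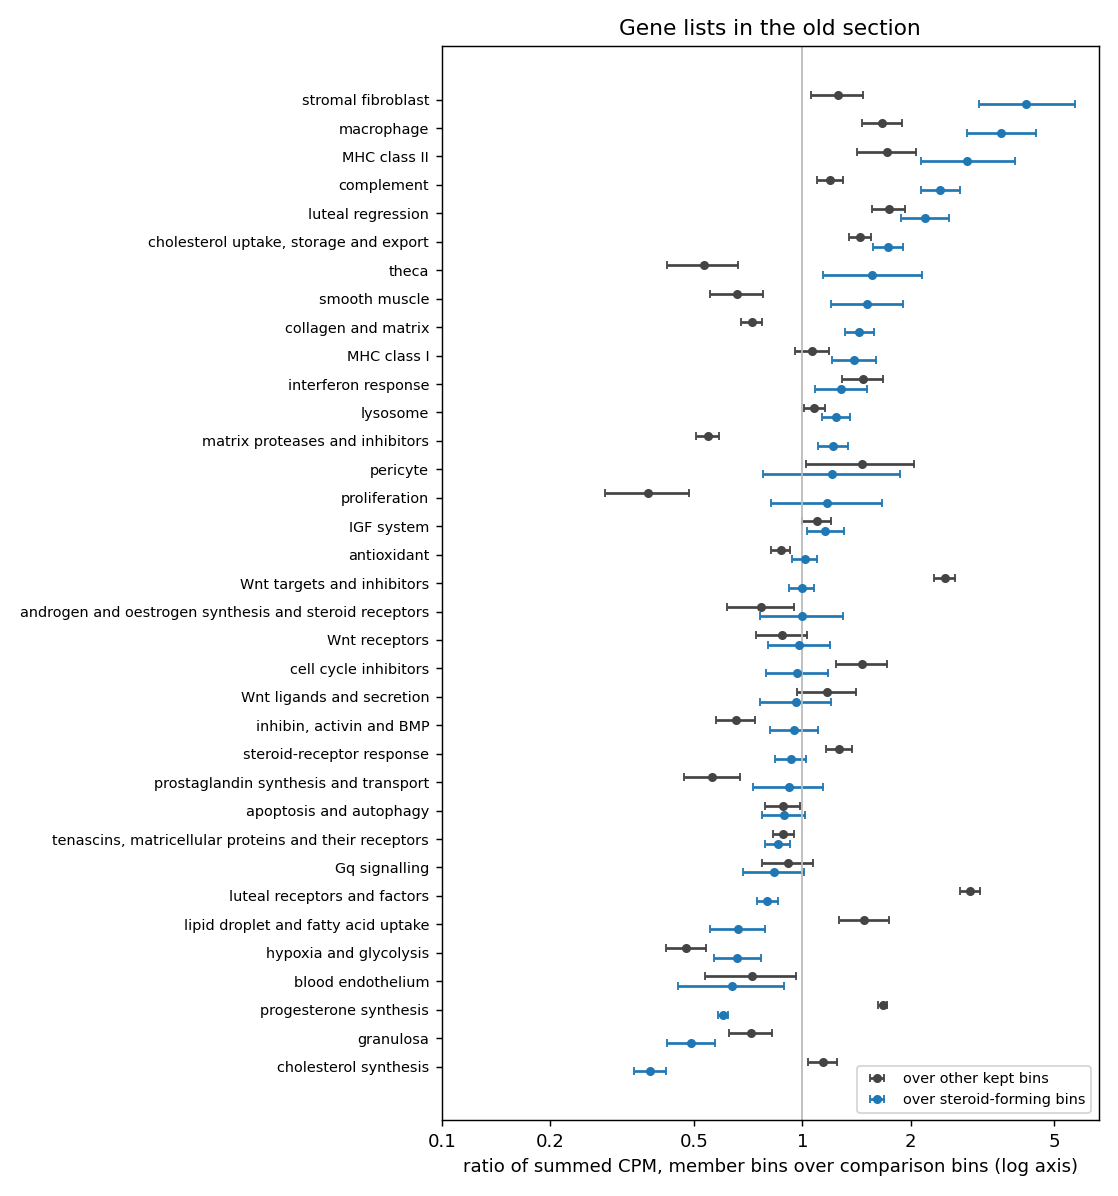
Ratios of summed CPM of gene lists with at least 40 counts in the members, on a log axis, with 95% intervals for counting error. Black points are members over other kept bins and blue points members over steroid-forming bins. Cholesterol synthesis is at 0.379 over the steroid-forming bins and 1.14 over the other bins, while the stromal fibroblast list is at 4.17 and 1.25.

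The 12 highest ratios over the other kept bins were those of Plin4, Akr1c18, Sfrp4, Gadd45a, the endothelial lipase Lipg (3.63-fold, 2.79 to 4.69), Gpx3, Tmem178 (3.44-fold), the stress-induced regulator Nupr1 (3.39-fold, 2.95 to 3.88), Wdr41, Kcnab3, Rabep1 and Prxl2b (2.81-fold). Lipg was higher still in the steroid-forming bins, at 1007 CPM against 476.1 in the members. The 12 lowest were Prkg2, Rhox8, Crispld2, Vcan, Adamts1, Bves, Top2a, Ptgs1, Incenp, Ldhd, Igsf3 and Smarca1. Prkg2, a cyclic GMP-dependent kinase, had 1 count in the members and 271 in the other bins, a ratio of 0.0398 (0.00100 to 0.223). Smarca1, a chromatin remodeller, had the highest level of these in the members, at 232.2 against 1441 CPM in the other bins, where Adamts1 was at 1866.

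Over the steroid-forming bins, the 12 highest were Lyz2, Nupr1, Pmepa1, the phospholipid transfer protein Pltp, the lectin Lgals3, Ctss, Apoe, Dcn, Tmem178, the laminin chain Lama1, Txnip and Mt2. Nupr1 was at 1643 CPM against 244.3, a ratio of 6.73 (5.12 to 8.95), and Lgals3 at 632.8 against 112.8, a ratio of 5.61 (3.72 to 8.71). Pltp was at 5.76 (2.91 to 12.4) and Lama1 at 5.15 (2.65 to 10.8). The 12 lowest were Ssu2, the protease Bace2, Smpdl3b, Plbd1, Lhcgr, Elovl6, Aif1l, Cyp51, Rab27a, Dhcr7, Cldn18 and Cyb5a. Bace2 was the most abundant in the steroid-forming bins, at 1473 CPM against 232.2 in the members, a ratio of 0.158 (0.111 to 0.219). Of these 12, Lhcgr, Cyp51 and Dhcr7 belong to the luteal and cholesterol lists above.

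The ratios differed by place in the section. The quadrant of low x and high y held 43 members, 80 of the 88 steroid-forming bins and 142 other kept bins. Within it, Akr1c18 was 5.49-fold (3.49 to 8.80) over the other bins and 2.08-fold (1.47 to 2.92) over the steroid-forming bins, and Sfrp4 was 3.26-fold (2.86 to 3.72) over the other bins. Plin4 was 2.90-fold (2.12 to 3.97) and Nupr1 2.33-fold (1.66 to 3.25). Cholesterol synthesis was at 0.413 (0.364 to 0.468) and progesterone synthesis at 0.696 (0.671 to 0.722) of the steroid-forming bins, and progesterone synthesis at 1.58-fold (1.51 to 1.65) of the other bins. The hypoxia and glycolysis list was at 0.804 (0.648 to 0.992) of the other bins. These ratios kept their direction inside the quadrant.

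Others changed sides there. The macrophage list was at 0.865 (0.695 to 1.07) of the other bins inside the quadrant and at 2.24-fold (1.89 to 2.64) outside it, MHC class II at 0.783 (0.585 to 1.04) and 2.22-fold (1.70 to 2.86), and Dcn at 0.594 (0.299 to 1.10) and 2.53-fold (1.74 to 3.58). Lists under 1.5-fold over the whole section changed sides too. Among them, complement was at 0.634 (0.5495 to 0.728) inside and 1.675-fold (1.51 to 1.85) outside. The stromal fibroblast list was at 0.702 (0.524 to 0.930) and 1.71-fold (1.38 to 2.11). Wnt ligands were at 0.666 (0.489 to 0.893) and 1.50-fold (1.16 to 1.91). Over the steroid-forming bins of the same quadrant the macrophage list was still 2.80-fold (2.15 to 3.65), Lyz2 5.30-fold (2.11 to 14.4) and the stromal fibroblast list 3.49-fold (2.38 to 5.15). Adamts1 was at 1.17 (0.606 to 2.15), Spp1 at 1.19 (0.527 to 2.50) and Timp1 at 1.28 (0.962 to 1.69) of the other bins inside it. Aldoa at 1.10, Vegfa at 1.29, Ier3 at 1.35, Slco2a1 at 1.08, Crispld2 at 1.16 and Bves at 1.35 were also above 1 inside it, against values below 1 over the whole section, but Ier3 and Crispld2 rested on 3 member counts each there. Lgr4 was 3.19-fold (1.95 to 5.23) higher inside and at 0.321 (0.175 to 0.541) outside. Outside the quadrant only 8 steroid-forming bins were left, and Star was at 1.02 (0.514 to 2.29), Dcn at 0.807 (0.289 to 3.12), Mt2 at 0.538 (0.185 to 2.13) and the stromal fibroblast list at 0.986 (0.499 to 2.22) of them.

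The members were not uniform, and their 5 larger groups fell into unlike kinds. The 3 ranking genes, which chose the bins, ranged among these groups from 2922 to 4467 CPM for Tnc, from 1803 to 2567 for Ptgfr and from 1165 to 1976 for Wnt10b. Akr1c18 was at 270.2 CPM (154 to 439) in the group of 29 but at 1914 (1489 to 2423), 2635 (1929 to 3515), 2540 (1845 to 3410) and 1834 (1003 to 3077) in the groups of 10, 9, 8 and 5. The group of 29 thus stood at 1.12 (0.633 to 1.83) of the level in the other kept bins and the remaining 4 groups at 7.58-fold to 10.9-fold. The Akr1c18 counts of the group of 29 were spread over 15 of its 29 bins.

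Apoe divided the groups in another way. It was at 878.3 CPM (656 to 1152) in the group of 29 and 998.8 (700 to 1383) in the group of 10, below the 1528 of the other kept bins. It was at 8593 (7273 to 10083), 10390 (8928 to 12024) and 8385 (6457 to 10707) in the groups of 9, 8 and 5, 5.49-fold to 6.80-fold over the other bins. The macrophage list followed it, at 692.5 and 721.3 CPM in the groups of 29 and 10 and at 4411, 3925 and 3144 in the groups of 9, 8 and 5. Lyz2 had 1 and 2 counts in the groups of 29 and 10 and 15, 13 and 3 in the others. The 3 Apoe-rich groups adjoined a steroid-forming bin in 0, 3 and 0 of their bins.

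The progesterone synthesis list was at 39017 CPM in the group of 29, 31545 in the group of 10, 22342 in the group of 9, 32267 in the group of 8 and 18603 in the group of 5, where it was at 0.929 (0.783 to 1.10) of the other kept bins. Hsd3b1 was at 20032 CPM in the group of 29 and 6551 in the group of 5. The cholesterol synthesis list was at 3378 and 3191 CPM in the groups of 29 and 10 and at 973.9, 981.3 and 1441 in the groups of 9, 8 and 5, so that even the highest was below the steroid-forming bins at 7420. Sfrp4 was at 5827 and 5937 CPM in the groups of 29 and 10, and at 2463, 3579 and 1965 in the groups of 9, 8 and 5. Lhcgr had 16 and 4 counts in the groups of 29 and 10 and 0, 0 and 1 in the other 3. These groups held 59205, 36044, 17456, 17324 and 7633 counts in all, so the few Lhcgr counts do not rank them. The rest of the Lhcgr counts of the members lay in the smaller groups.

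The group of 10 had leading genes of its own. Timp1, an inhibitor of matrix proteases, was at 3551 CPM there against 983.9 in all other members, a ratio of 3.61 (2.81 to 4.63). Gpx3 was at 3496 CPM (3.33-fold, 2.60 to 4.26) and Mgp, matrix Gla protein, at 915.5 (3.46-fold, 2.09 to 5.71). The group of 29 led the other members in Dpysl4 (3.58-fold) and the corepressor Tle2 (3.44-fold), and held Dcn at 33.78 against 415.8 CPM. Lgals3 and Nupr1 led the group of 9, at 3.37-fold and 2.44-fold. Abcb1b, a transporter, was at 458.3 CPM in the group of 9 and 393 in the group of 5 against 2281 and 2175 in the other members. These genes, the 5 at each end per group among those with at least 10 expected counts, were chosen after their values were seen, as were the groups.

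**Figure D3:**
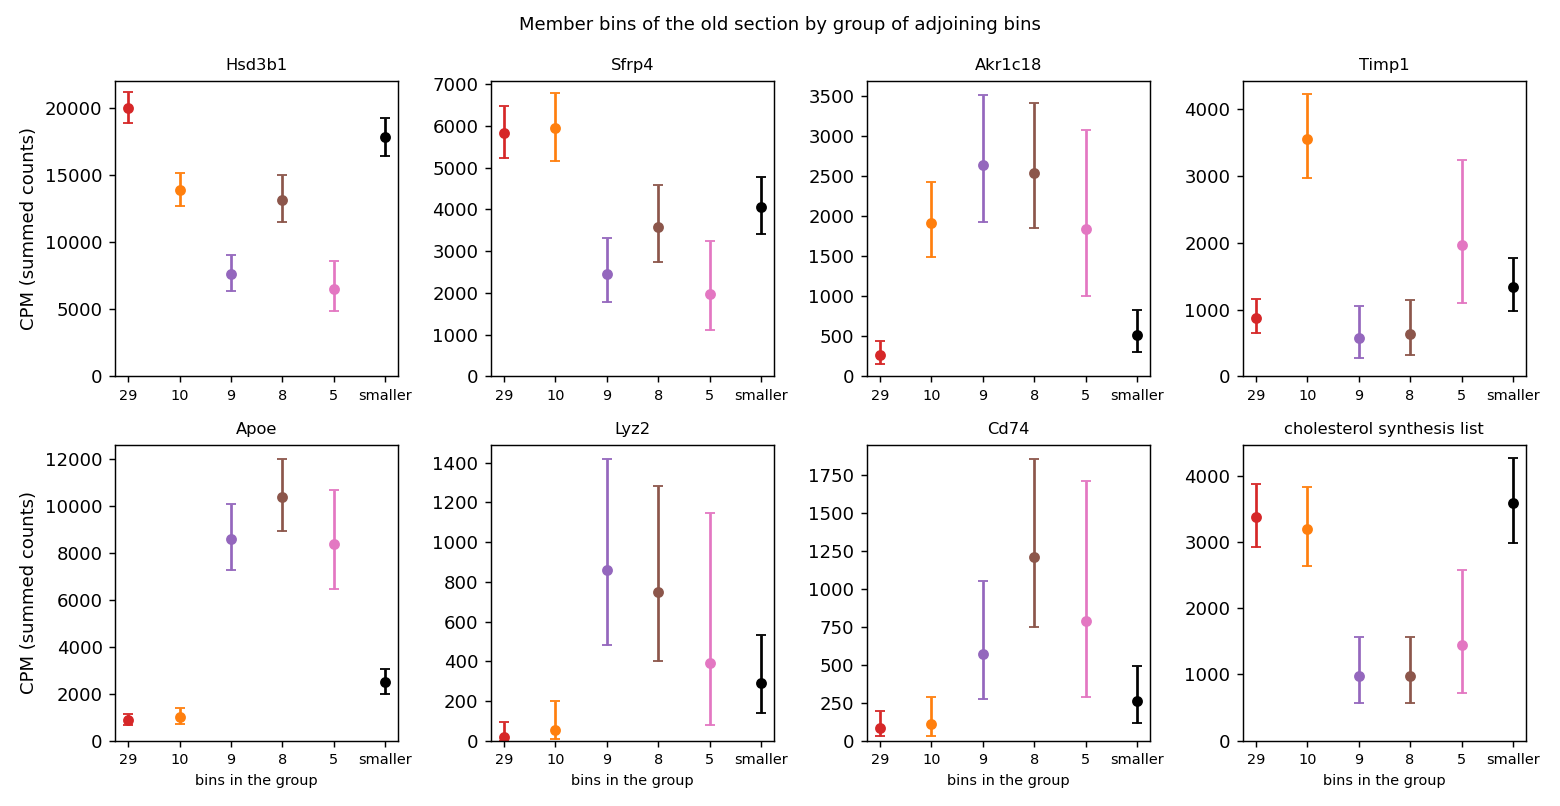
CPM of 7 genes and the cholesterol synthesis list in the 5 larger groups of adjoining members and the 18 members in smaller groups, with 95% Poisson intervals. Akr1c18 is low only in the group of 29 and the smaller groups among those drawn, while Apoe, Lyz2 and Cd74 are high in the groups of 9, 8 and 5.

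Malat1 and Neat1 also varied among the groups. Malat1 ran from 27439 CPM in the group of 10 to 48172 in the group of 29, and Neat1 from 4245 in the group of 10 to 6932 in the group of 9. Mitochondrial transcripts made up 1.77% and 1.70% in the groups of 29 and 10 and 1.12%, 1.24% and 1.27% in the groups of 9, 8 and 5. Their part in the differences among groups was not tested.

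Levels around the members and down the ranking were read next. The rings of bins around the members held other kept bins only. Steroid-forming bins were left out of them, and 54 of those 88 did not adjoin a member, so the rest did. The ranking genes went from 3408 CPM in the members to 927.3 in the first ring for Tnc, and from 2177 to 518 for Ptgfr. The rule fixed a lower summed share of the ranking genes in every ring bin, so this drop is a description only. Sfrp4, which the rule did not use, went from 4755 CPM in the members to 1942 at 1 bin away, 1135 at 2 bins and 900.2 beyond. The steroid-forming bins, which are not in these rings, held Sfrp4 at 4988 CPM, so its drop holds for the other kept bins alone. Akr1c18 went from 1202 to 286.2 CPM at 1 bin and was at 258.6 CPM at 3 or more bins. Apoe did not end at the edge of the members: it was at 3298 CPM inside, 3090 at 1 bin, 2309 at 2 bins and 980.0 beyond. Adamts1 ran the other way, from 197.4 CPM in the members to 358.6, 831.1 and 2467.

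The ranked bins were split into 10 parts of 79 or 80 bins, of which the members are the first. The macrophage list was at 1602 CPM in the members and at 1619, 1532 and 1539 CPM in the next 3 parts, so its level was not particular to the members. The stromal fibroblast list was at 940.5 CPM in the members and 1304 in the third part. Akr1c18 was at 1202 CPM in the members, 469.5 in the second part and 181.8 in the third. Nupr1 had a flatter course, from 1643 CPM to 1014 and 1003. Sfrp4 was at 4755, 2552 and 1512 CPM in the first 3 parts.

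**Figure D4:**
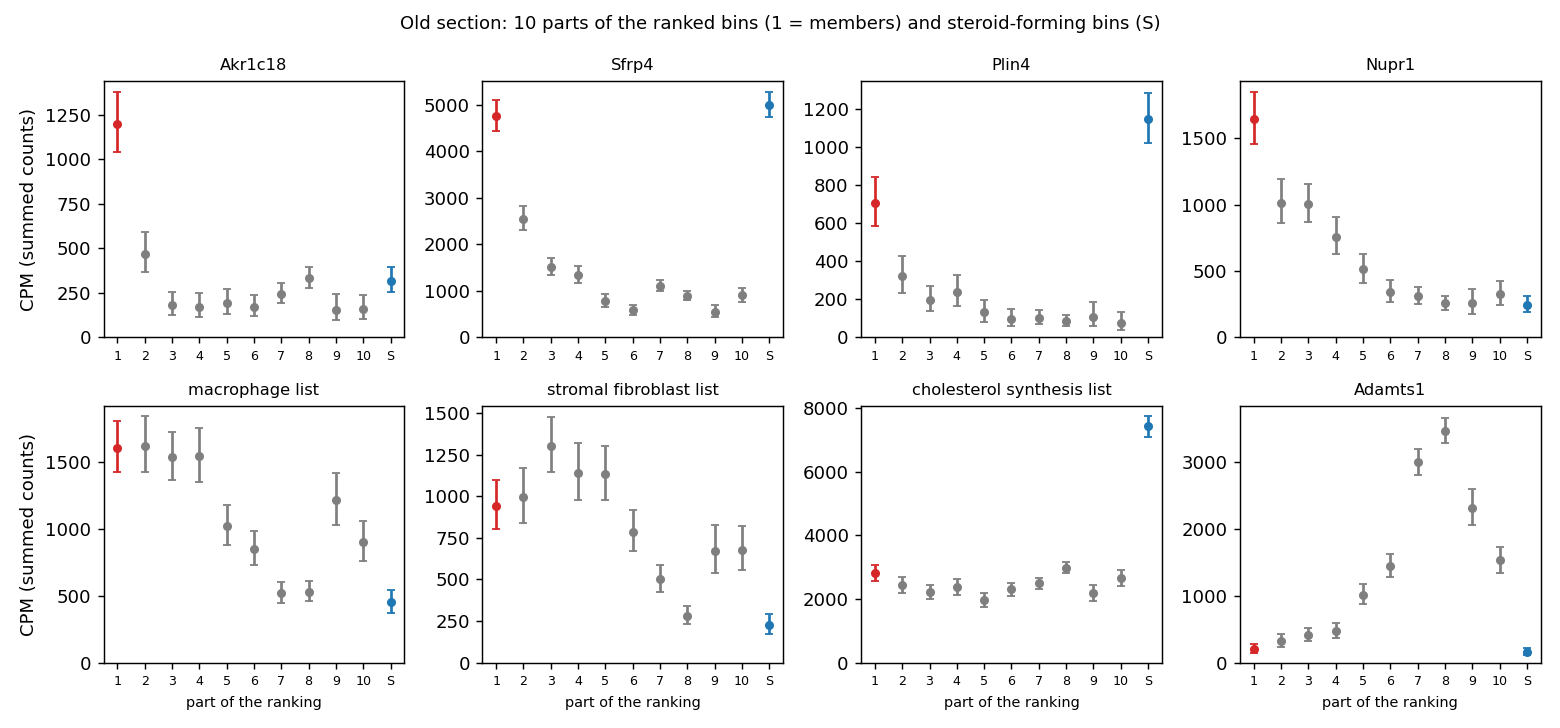
CPM, with 95% Poisson intervals, in 10 parts of the ranked bins of the old section, from the members (1, red) to the last 2 parts (9 and 10), which have no marker counts and so no order, and in the steroid-forming bins (S, blue). Akr1c18 is highest in the members, Sfrp4 and Plin4 are high in the members and S, and the macrophage list is alike over the first 4 parts.

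The young section gave the same rule a library that had not chosen these bins. Its 117 members had Tnc at 4355 and Ptgfr at 2953 CPM, but Wnt10b at 489.6 CPM, below the 1527 of the old members. Of 4871 genes described over the other kept bins, 426 were higher (8.75%) and 1164 lower (23.9%), and of 4235 over the steroid-forming bins 488 were higher (11.5%) and 452 lower (10.7%). Over the other bins, 1844 genes were described in both sections. Of the 114 higher in the old members, 73 were higher in the young members too, 64.0% of the old genes and 30.5% of the 239 young ones, beside 12.96% of all 1844 genes higher in the young section. Of the 295 lower in the old, 101 were lower in the young, 34.2% and 40.4% of the 2 lists, beside 13.6% of all 1844 genes lower in the young section.

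Akr1c18 was at 2084 CPM in the young members against 122.9 in the other bins, 16.9-fold (15.2 to 18.9), and Sfrp4 at 6902 against 436, 15.8-fold (14.9 to 16.8). Sgk1, a steroid-induced kinase, was 12.2-fold over the other bins in the young section and 2.00-fold (1.80 to 2.22) in the old. Lgmn, a lysosomal protease, was 10.8-fold and 2.65-fold (2.16 to 3.22). Lhcgr was at 0.382 (0.275 to 0.518) of the other bins and 0.194 (0.136 to 0.271) of the steroid-forming bins in the young section, the second close to the 0.193 of the old. The steroid-forming bins of the sections differed, as given further on. Hsd3b1 was at 0.830 (0.804 to 0.856) of the other bins in the young section, against 1.97-fold in the old.

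Over the steroid-forming bins, 1744 genes were described in both sections. Of 210 genes higher in the old members and 167 higher in the young, 54 were shared, 25.7% and 32.3%, beside 9.58% of all 1744 genes higher in the young section. Of 260 and 132 lower, 45 were shared, 17.3% and 34.1%, beside 7.57% of all genes lower in the young. Apoe was 1.85-fold (1.64 to 2.08) and Lyz2 2.40-fold (1.84 to 3.15) over the steroid-forming bins in the young section. Dcn was at 0.736 and Lama1 at 0.944, against 5.41 and 5.15 in the old. Hsd17b7, one of the genes that chose the steroid-forming bins, was at 3601 CPM in those of the old section and 197.8 in those of the young, given as a description. Differences between the sections were not tested.

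**Figure D5:**
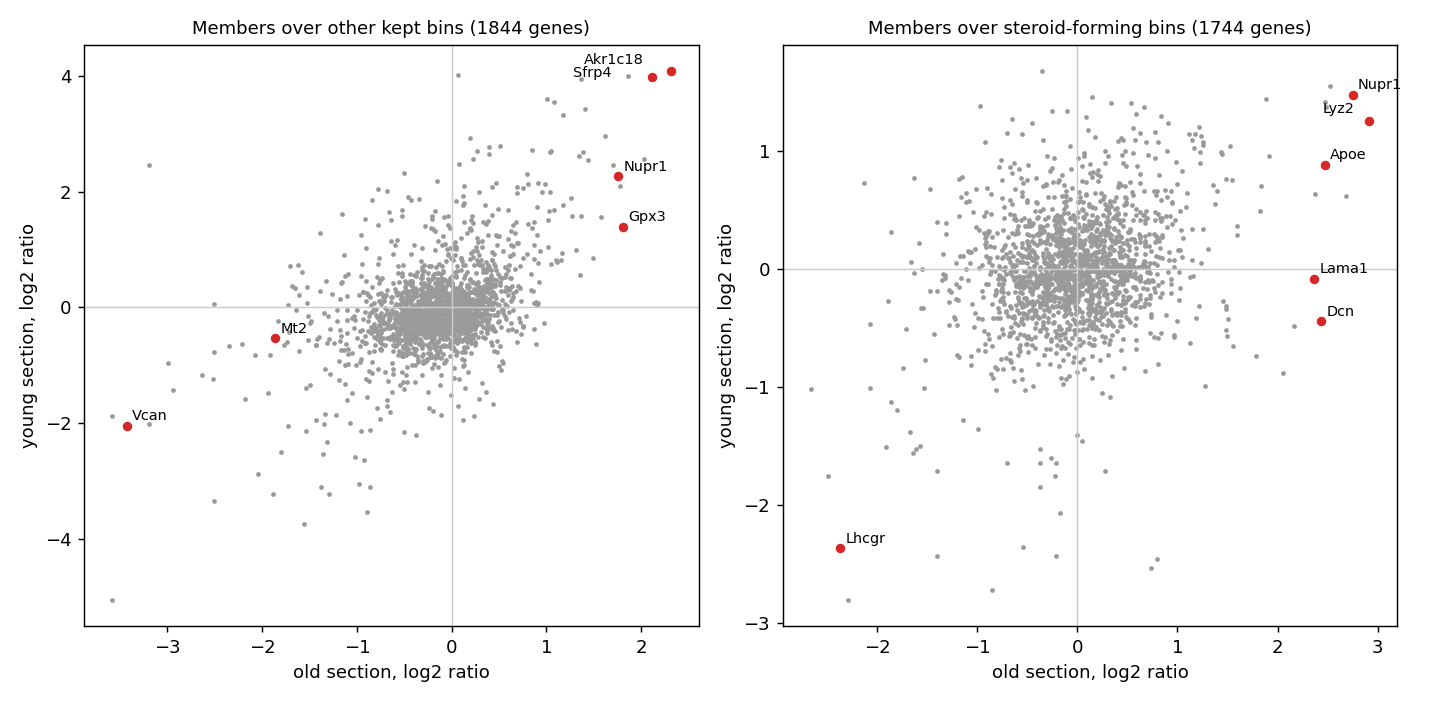
Log2 ratio of each gene described in both sections, old on the x axis and young on the y axis, for members over the other kept bins (left, 1844 genes) and over the steroid-forming bins (right, 1744 genes). Sfrp4, Akr1c18 and Nupr1 are high in both sections on the left, while Dcn is high on the right in the old section only.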

How the data were processed

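Slide-seq was run on polyA RNA of ovary sections, and 1 section per age was used. The authors deposited whole-number counts per gene and bead and a position per bead, whose length unit is not stated. The genome build was mm10, per the submitters' processing notes. Not given in the sources used here are the aligner, the annotation and whether a count is a molecule or a read. Beads with under 10 counts do not occur in the tables. No barcode with counts occurred in both sections.

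Counts were summed over bins of 70 units and 500 counts or more, which kept 97.7% (old) and 98.8% (young) of counts, and scaled to CPM. Ratios have exact conditional binomial (Clopper-Pearson) 95% intervals and levels exact Poisson ones, for counting error only. The 6 rule genes were in no list and no count of genes. The members, the 45 gene lists and the comparisons were chosen with earlier results of these data known. Named genes were the 12 highest and lowest ratios per comparison, leaving out mitochondrial, ribosomal protein, haemoglobin and clone-named genes, and, of each list, the described genes with the 3 highest and 3 lowest ratios and the 2 largest levels; genes at 0 in the members and leaders of groups were named after their values were seen. A result that these rules would name is not reported here. Doublet callers do not apply to bins and no cell types were assigned. Alternatives changed bin width, grid, count minimum, ranking genes, shares taken, scaling and place in the section. The interval step was tested on simulated data. Python 3.11.15, numpy 2.4.6, scipy 1.17.1 and matplotlib 3.10.9 were used. Of 11 genes sought, 9 had upstream sequence in the RefSeq table.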

Additional observations from a re-analysis of the deposited data

Results flagged for a closer look

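The ratios of 8 comparisons of gene lists lay on opposite sides of 1 in the old and the young section, with both 95% counting intervals clear of 1. Over the steroid-forming bins, luteal receptors and factors were at 0.800 in the old members and 1.58 in the young, the tenascin and matricellular list at 0.856 and 1.41, and the lipid droplet list at 0.662 and 1.20. In the same comparison the theca list was at 1.56 and 0.170, the stromal fibroblast list at 4.17 and 0.817 and the smooth muscle list at 1.51 and 0.452. The steroid-forming bins of the old and young sections were unlike in these 3 lists, at 312 and 9017, 225.5 and 883.9, and 578.8 and 1297 CPM. The old and young members were at 487.7 and 1534, 940.5 and 722.1, and 876.7 and 585.8 CPM. Over the other kept bins the matricellular list was at 0.887 and 1.80 and the collagen and matrix list at 0.725 and 1.67. These differences between sections were not tested, since each age has 1 section.

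The old bins under the minimum of 500 counts, used in no comparison, held 171 counts of Tnc, Ptgfr and Wnt10b among 55234, or 3096 CPM, above the 54.31 CPM that 3 counts give there. The 3 genes summed to 7112 CPM in the members and 967 CPM in the other kept bins, from which the members had been taken out. The count minimum thus left out bins that were together richer in these genes than the other kept bins.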

How the results depend on the processing

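Limits: each section is 1 library, bins adjoin and share tissue, and 19 members rest on fewer than 10 marker counts, so single bins near the threshold are uncertain. Depth limits genes below about 100 CPM in the members, most of which fell under the minimum of 20 expected counts. The groups, the group leaders and the values inside the quadrant of low x and high y were chosen after seeing the data, as were the settings that leave out a group or the bins adjoining members. No paired analysis was possible because the labels give the 2 sections different replicate numbers and each age has 1 section.

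Cholesterol synthesis in the members over the steroid-forming bins, 0.379, stayed below 1 in every setting run. Every setting chose the steroid-forming bins by the same genes, Hsd17b7 of this pathway among them. It was 0.320 with bins of 100 units, 0.331 with a shifted grid, 0.323 with the top 5% of bins, 0.339 without the group of 29, 0.517 with no steroid-forming bins left out and 0.713 (0.469 to 1.13) without the quadrant of low x and high y. Progesterone synthesis over the other bins, 1.67, stayed above 1. It was 1.56 with bins of 100 units, 1.50 with equal weight per bin, 1.88 with no steroid-forming bins left out, 1.53 ranked by Tnc and Wnt10b, 1.57 with the top 5% of bins, 1.59 with the top 20%, 1.48 with 20% steroid-forming bins, 1.75 without bins adjoining members, and 1.53 and 1.73 without the groups of 29 and 9. It was 1.40 without the quadrant of low x and high y, 1.58 within it, and 1.74, 1.60 and 1.77 without the other quadrants.

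The counts of genes moved with the thresholds. Higher and lower than the other bins, 117 and 321, became 38 and 130 at 2-fold, 3152 and 8430 with at least 1 count, 312 and 809 with 10 expected counts, 32 and 89 with 50, 198 and 497 with the top 20% of bins, 42 and 151 with the top 5%, 69 and 185 without the group of 29, and 40 and 141 without the quadrant of low x and high y. Within it 134 were lower. Against the steroid-forming bins, 213 and 300 became 68 and 113 at 2-fold, 5007 and 4047 with at least 1 count, 595 and 679 with 10 expected counts, 47 and 100 with 50, 64 and 159 with the top 5%, 78 and 173 within the quadrant and 6 and 2 without it, where fewer genes were described. The higher count was 452 with the top 20% of bins, 124 with 20% steroid-forming bins, 140 and 126 without the groups of 10 and 29, and 125 without the upper right quadrant (high x, high y).

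Of values past 1.5-fold, 21 of 34 list ratios and 91 of 116 gene ratios kept their direction in every setting. Within the quadrant, over the other bins, the values that turned were Adamts1 1.17, Aif1l 2.45, Aldoa 1.10, Bves 1.35, C1qa 0.909, Crispld2 1.16, Ctss 0.775, Dcn 0.594, Fst 3.71, Ier3 1.35, Inha 1.01, Lgr4 3.19, Lyz2 0.778, Slco2a1 1.08, Spp1 1.19, Timp1 1.28 and Vegfa 1.29, and the lists of MHC class II 0.783, inhibin, activin and BMP 1.00, macrophage 0.865, matrix proteases 1.03, oocyte 1.35 and periovulatory 1.18. Without it, over the steroid-forming bins, they were Dcn 0.807, Mt1 0.398, Mt2 0.538, Plin4 1.52, Prxl2b 1.05, Soat1 1.21 and Star 1.02, and the lists of blood endothelium 1.07, lipid droplets 2.03, smooth muscle 0.647, stromal fibroblasts 0.986 and surface epithelium 0.147. Igfbp6 over the other bins was 1.04 with the top 20% of bins. The smooth muscle list over the other bins was 1.08 with the top 20% of bins and 1.02 without the quadrant, and over the steroid-forming bins 0.951 with the top 5%. The surface epithelium list there was 0.904 with equal weight, 0.771 with 20% steroid-forming bins and 0.973 with the top 5%, and the theca list 0.865 with 20% steroid-forming bins. The causes were not tested.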

Other observations

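Further lists were described in the members. Lysosomal genes were at 1.08 (1.01 to 1.16) of the other kept bins, with 1 of 12 described genes higher, Lgmn, near the 6.2% of all genes described. Among interferon-responsive genes, Bst2, a membrane tether of enveloped viruses, was at 412.2 CPM, 2.48-fold (1.89 to 3.22) over the other bins and 0.806-fold (0.597 to 1.08) of the steroid-forming bins. Among MHC class I genes, H2-T23 was at 255.5 CPM, 2.02-fold (1.43 to 2.79) and 1.84-fold (1.16 to 2.92), with B2m at 1.23 and 1.27. In the IGF system, Igfbp7 was at 1666 CPM, 1.29-fold (1.14 to 1.46) over the other bins, and Igfbp6 at 0.593 (0.430 to 0.798) of the other bins but 2.84-fold (1.71 to 4.83) over the steroid-forming bins. Inhibin and activin genes described over the other bins were lower in 4 of 5, beside 17% of all genes described, among them Fst, which binds activin, at 0.340 (0.206 to 0.529) and Inha at 0.550 (0.359 to 0.809). Within the quadrant of low x and high y, Fst was at 3.71 and Inha at 1.01 of the other bins.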
